A study of Mus musculus with 42 samples.

Results

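The second week of repair in mouse joint soft tissue was followed by comparing the 4 libraries labelled RST day 14 with the 4 labelled RST day 7, over all expressed genes. These 8 libraries were chosen by their titles out of 42 in the series, and 16149 of the 36604 genes in the joint table had enough counts to be tested. All mice were C57BL/6 wild type. The study concerns arthroplasty of the knee, in which part of the joint is replaced by an implant. RST day 14 and RST day 7 differ in their labels only by day, and the series text names tissue repair after surgery as the question. The joint set also holds RST days 3, 21 and 35 and LST day 35, which enter here only for the shared estimate of the spread and for the course over days. RST and LST are not spelled out in the labels. Nothing there says whether the 4 replicates came from separate animals, so each p-value refers to the spread among these libraries, part of which may be technical.

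Wound repair in a joint passes through overlapping phases. Inflammatory cells clear debris, fibroblasts and satellite cells (the stem cells of muscle) divide, a collagen-rich matrix is laid down, and new muscle fibres first use embryonic forms of the contractile proteins before adult forms take over. Cartilage and bone can also form near an injured joint, with chondrocytes that enlarge, make collagen X and are replaced by bone. In bulk tissue, fewer cells of a type and less RNA per cell cannot be told apart, which applies to every result given here.

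The libraries held 20129243 to 27444537 counts on day 14 and 20317132 to 25337254 on day 7. The tissue contained much muscle. A list of 22 mature skeletal muscle genes took 21 ± 1.97% of counts on day 14 and 14.98 ± 2.49% on day 7 (SD, n = 4 each), and mitochondrially encoded genes took 7.62 ± 1.25% and 4.63 ± 0.836% on the same days. Neither share overlapped between the groups (exact two-sided permutation p = 0.0286 for each, the smallest that 4 against 4 libraries allow, and 0.0381 adjusted over 4 shares). The 20 most abundant genes took 27.85 ± 2.23% on day 14 and 21.39 ± 2.27% on day 7, with the same p. The fibrillar matrix list went the other way, with 3.09 ± 1.42% on day 14 and 6.00 ± 0.953% on day 7, but these shares overlapped (exact permutation p = 0.0571, adjusted p = 0.0571). Prg4, the lubricin of the synovial lining, stood at 558 to 1331 CPM (each gene's counts scaled to a common library size) on day 14 and 845 to 1177 CPM on day 7.

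Day 14 replicate 2 stood apart from the other day 14 libraries. On the first principal component of the 8 libraries, which carried 63.3% of their variance, it scored −1.35, while the other day 14 libraries scored 35.3, 59.4 and 43.7 and the day 7 libraries −19.5, −23.5, −47.7 and −46.3. Its fibrillar matrix share, 5.15%, was above those of the other day 14 libraries, at 1.88 to 2.74%, and within the day 7 range of 4.84 to 7.07%. The day 14 libraries were the more variable group. The median gene had an SD of 0.219 log2 CPM on day 14 and 0.168 on day 7, and the SD was larger on day 14 for 10353 genes (64.1%). Counts of list members are therefore also given without day 14 replicate 2 where they moved. All such counts are over the members tested, lists share some members, and a gene passed at an adjusted p below 0.05.

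**Figure D1:**
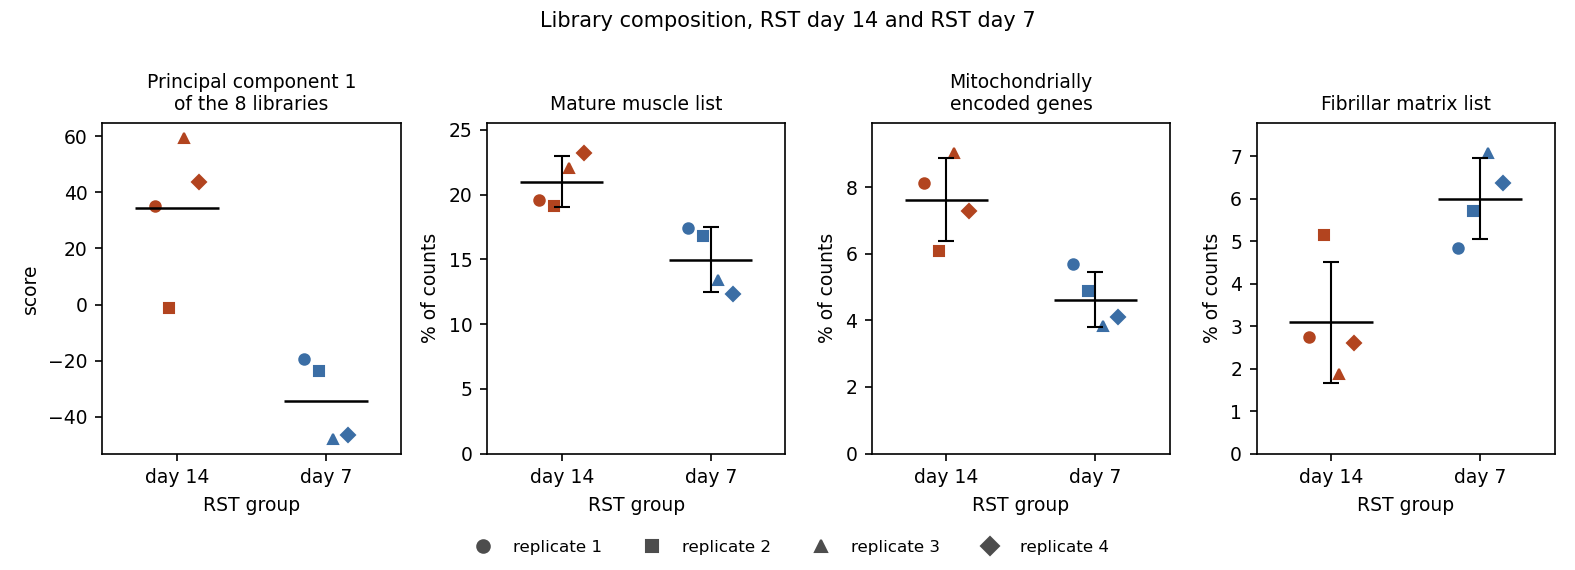
Score on the first principal component of the 8 libraries, and percent of counts from the mature muscle list, the mitochondrially encoded genes and the fibrillar matrix list, for RST day 14 (left in each panel) and RST day 7. Each point is 1 library with its replicate number by shape, bars are means and, for the shares, error bars are SDs of 4 libraries; day 14 replicate 2 (square) lies at −1.35 on the component and at 5.15% fibrillar matrix, nearer to day 7 than the other 3.

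Gene expression differed widely between the days. By the quasi-likelihood test of edgeR, adjusted over all genes by the Benjamini-Hochberg method, 6284 of 16149 genes passed the threshold of 0.05 (38.9%), of which 3377 were higher on day 14 (20.9% of genes tested) and 2907 lower (18%). Of these, 446 were more than 2-fold higher (2.76%) and 677 more than 2-fold lower (4.19%). CPM ranges of the 2 groups did not overlap for 5119 genes (31.7%), of which 2513 were higher on day 14 (15.6%) and 2606 lower (16.1%). The balance of rises and falls depends on the scaling: calls were 53.7% higher and 46.3% lower with TMM (edgeR's trimmed mean scaling), but 14.5% higher and 85.5% lower (1315 and 7727 genes) when libraries were scaled by total count alone. Total-count scaling moved the median log2 fold change of all genes to −0.353, against −0.0205 with TMM, so each change below is relative to the TMM scale. Without day 14 replicate 2, 7552 genes passed, 3868 higher and 3684 lower. The number lower was 1762 without day 14 replicate 3 and 1929 without day 7 replicate 3. Counts of list members below stand against the shares of all genes, 20.9% higher and 18% lower in the main fit. In another setting they stand against the counts of all genes there, such as 1315 higher and 7727 lower of 16149 with total-count scaling.

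The 12 largest falls among genes with a mean of at least 50 raw counts in the higher group included genes of cell surfaces, immune cells and muscle. B3gat1 (chromosome 9, 26733728 to 26763101, plus strand, mm10), an enzyme that builds the HNK-1 carbohydrate of neural and other cell surfaces, had 0.145, 0.29, 0.355 and 0.135 CPM on day 14, against 3.02, 3.02, 4.52 and 3.03 CPM on day 7. Cdh3, the adhesion molecule P-cadherin, had 0.484, 0.548, 0.133 and 0.225 CPM on day 14, against 4.83, 2.86, 5.73 and 3.82 CPM on day 7. Every day 14 library lay below every day 7 library for both genes. Genes named here for the size of their change were picked among genes without overlap. For all of them such separation was therefore fixed by the choice and is no support of its own. The log2 fold changes were −3.82 ± 0.39 (SE) for B3gat1 (edgeR adjusted p = 4.32e-06) and −3.57 ± 0.32 for Cdh3 (edgeR adjusted p = 1.45e-06). On day 14 the raw counts were 3, 9, 8 and 3 for B3gat1 and 10, 17, 3 and 5 for Cdh3, so the sizes rest on few reads there. The other 10 of the 12 were the arginase Arg1, the granzymes Gzmd and Gzme, the growth factor Nrg1, Plekhh1, and 5 genes of developing or denervated muscle described next. Raw counts on day 14 were also few for Gzmd (4, 9, 1 and 3) and Nrg1 (0, 22, 2 and 4).

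**Figure D2:**
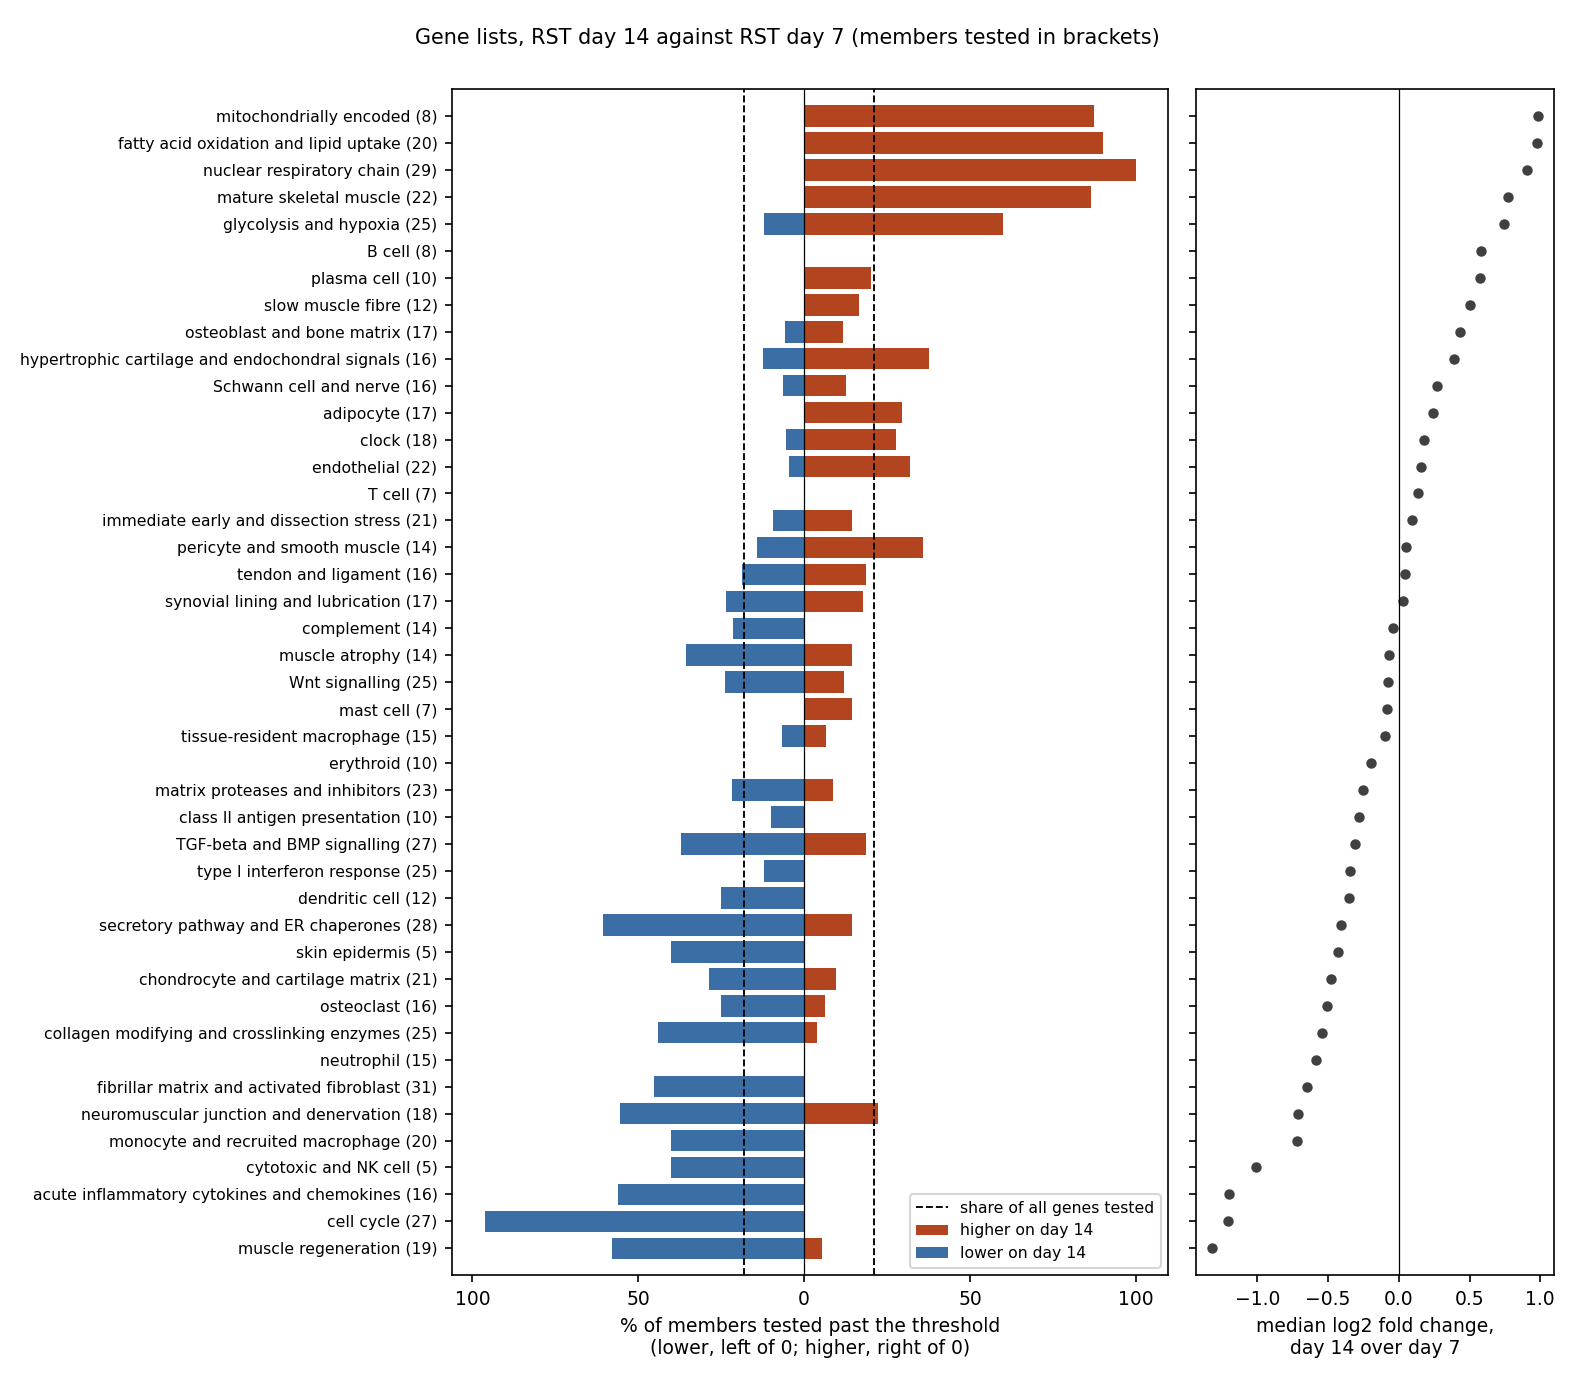
Percent of tested members of each of 43 gene lists past the threshold, lower on day 14 to the left of 0 and higher to the right, with the median log2 fold change of all tested members at right. Dashed lines mark the shares of all 16149 genes, 18% lower and 20.9% higher; the nuclear respiratory chain list, with all 29 members higher, and the cell cycle list, with 26 of 27 lower, lie farthest from them.

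Most genes of immature muscle and of the muscle-nerve junction fell. Of 19 muscle regeneration genes 11 were lower on day 14 and 1 higher (median log2 fold change −1.32), and of 18 neuromuscular junction and denervation genes 10 were lower and 4 higher (median −0.71). Without day 14 replicate 2 the regeneration list had 11 lower and 2 higher and the junction list 9 lower and 5 higher. With total-count scaling 16 regeneration genes were lower and 1 higher, and the junction list then had 12 lower and 1 higher. The summed level of the regeneration list, which includes the riser Actc1, overlapped, at 4318 ± 834 CPM on day 14 and 4195 ± 347 CPM on day 7. Adult muscle makes its acetylcholine receptor with an epsilon subunit, while fetal and denervated muscle uses gamma, and E-boxes of the form CAGCTG are bound by the myogenic transcription factors. The 250 bases before the RefSeq start of the genes for the gamma and alpha subunits, Chrng (chr1:87205561-87205810, plus strand) and Chrna1 (chr2:73580339-73580588, minus strand), both on GRCm38.p6 and from RefSeq, are shown because both genes fell and both windows hold this motif, here in capitals. The window of Chrng lies inside the gene as GENCODE draws it, from 87204657 to 87212694.
Chrng: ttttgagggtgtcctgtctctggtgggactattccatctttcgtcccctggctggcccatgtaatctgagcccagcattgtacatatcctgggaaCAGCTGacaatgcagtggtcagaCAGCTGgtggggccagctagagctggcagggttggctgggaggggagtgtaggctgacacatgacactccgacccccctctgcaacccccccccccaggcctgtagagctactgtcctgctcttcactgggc
Chrna1: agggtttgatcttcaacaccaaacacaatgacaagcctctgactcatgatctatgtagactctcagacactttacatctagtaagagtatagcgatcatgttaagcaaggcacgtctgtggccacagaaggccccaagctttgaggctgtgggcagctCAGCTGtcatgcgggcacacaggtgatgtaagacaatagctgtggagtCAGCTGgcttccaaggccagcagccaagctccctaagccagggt
The motif CAGCTG, which reads the same on both strands, was in 4 of 13 windows found for the 18 members of these lists that fell (30.8%: Chrng, Chrna1, Tnnt2 and Musk) and in 12.8% of all 27025 windows. A match is a description of the letters and not of binding.

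The receptor gene Chrng had 0.919, 3.35, 1.11 and 0.63 CPM on day 14, against 7.7, 6.9, 5.63 and 36.1 CPM on day 7. Chrna1 had 16.8, 16.8, 15.2 and 9.99 CPM on day 14, against 55.7, 46.0, 51.2 and 133 CPM on day 7. The groups did not overlap for either gene, and day 7 replicate 4 was the highest library for both. The log2 fold change was −3.15 ± 0.72 for Chrng (edgeR adjusted p = 0.00189), −2.28 ± 0.30 for Chrna1 (edgeR adjusted p = 3.67e-05), −2.28 ± 0.51 for the delta subunit gene Chrnd (edgeR adjusted p = 0.00159) and −0.61 ± 0.13 for the beta subunit gene Chrnb1 (edgeR adjusted p = 0.00114). Without day 7 replicate 4 those of Chrng and Chrnd were −2.09 (edgeR adjusted p = 0.0186) and −1.26 (edgeR adjusted p = 0.0179), and Chrng was at −3.98 without day 14 replicate 2. The adult epsilon subunit gene Chrne had 9.53, 6.22, 11.5 and 9.63 CPM on day 14 and 8.68, 8.43, 6.32 and 6.77 CPM on day 7, which overlap (log2 fold change 0.28 ± 0.21, edgeR adjusted p = 0.279). Levels were also set per kilobase of all annotated exons, which compares genes only roughly, since it depends on the exons annotated. That of Chrne was 5.46 ± 1.30 CPM per kb on day 14 and 4.47 ± 0.697 on day 7, and that of Chrng 0.361 ± 0.30 and 3.38 ± 3.53 on the same days (SD, n = 4). On day 7 Chrng was at 8.66 CPM per kb in replicate 4 and at 1.35 to 1.85 in the other libraries. Musk, the kinase that gathers receptors at the synapse, also fell (−1.23 ± 0.29), as did Ncam1, an adhesion molecule spread over denervated fibres (−1.32 ± 0.19). Of 14 muscle atrophy genes 5 were lower and 2 higher (median −0.07), 8 lower with total-count scaling and 3 without day 14 replicate 3 or day 7 replicate 4. They include Eda2r, a receptor with a role in muscle wasting (−1.03 ± 0.22), and Fbxo31, a ubiquitin ligase subunit (0.87 ± 0.14).

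Several embryonic contractile genes fell. Myh3, embryonic myosin heavy chain (chromosome 11, 67078300 to 67102291, plus strand), had 17.1, 13, 8.42 and 4.86 CPM on day 14, against 89.6, 91.9, 79.9 and 163 CPM on day 7. Myh8, the perinatal chain, had 20.5, 43.9, 10.2 and 10 CPM on day 14, against 178, 142, 155 and 194 CPM on day 7. Neither overlapped, and the log2 fold changes were −3.29 ± 0.36 (edgeR adjusted p = 6.57e-06) and −2.97 ± 0.30 (edgeR adjusted p = 4.32e-06), with Myh8 at −3.62 without day 14 replicate 2. Falls of similar size were those of Sln (−3.08 ± 0.54), which encodes the calcium pump inhibitor sarcolipin, Tnnt2 (−2.78 ± 0.25), the cardiac troponin T that developing muscle also makes, and Myl4 (−2.04 ± 0.21), an embryonic and atrial light chain. The genes for muscle differentiation and fusion fell as well. Mymk, the myoblast fusion protein myomaker, had 2.27, 3.64, 1.77 and 1.26 CPM on day 14, against 9.82, 9.03, 9.33 and 11.1 CPM on day 7 (log2 fold change −2.11 ± 0.36, edgeR adjusted p = 0.00018). Its partner Mymx fell by 2.16 on the log2 scale and Myog, the transcription factor of differentiating myoblasts, by 1.70. Pax7, which marks satellite cells, had 2.29 to 3.82 CPM on day 14 and 2.26 to 4.32 CPM on day 7 and did not pass the test (−0.25 ± 0.22, edgeR adjusted p = 0.379). The imprinted transcripts H19 and Mest, both high in fetal tissue, fell too, with 1426 to 1740 CPM of H19 on day 14, against 2931 to 4095 CPM on day 7, and 34.2 to 97.1 CPM of Mest on day 14, against 275 to 325 CPM on day 7.

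**Figure D3:**
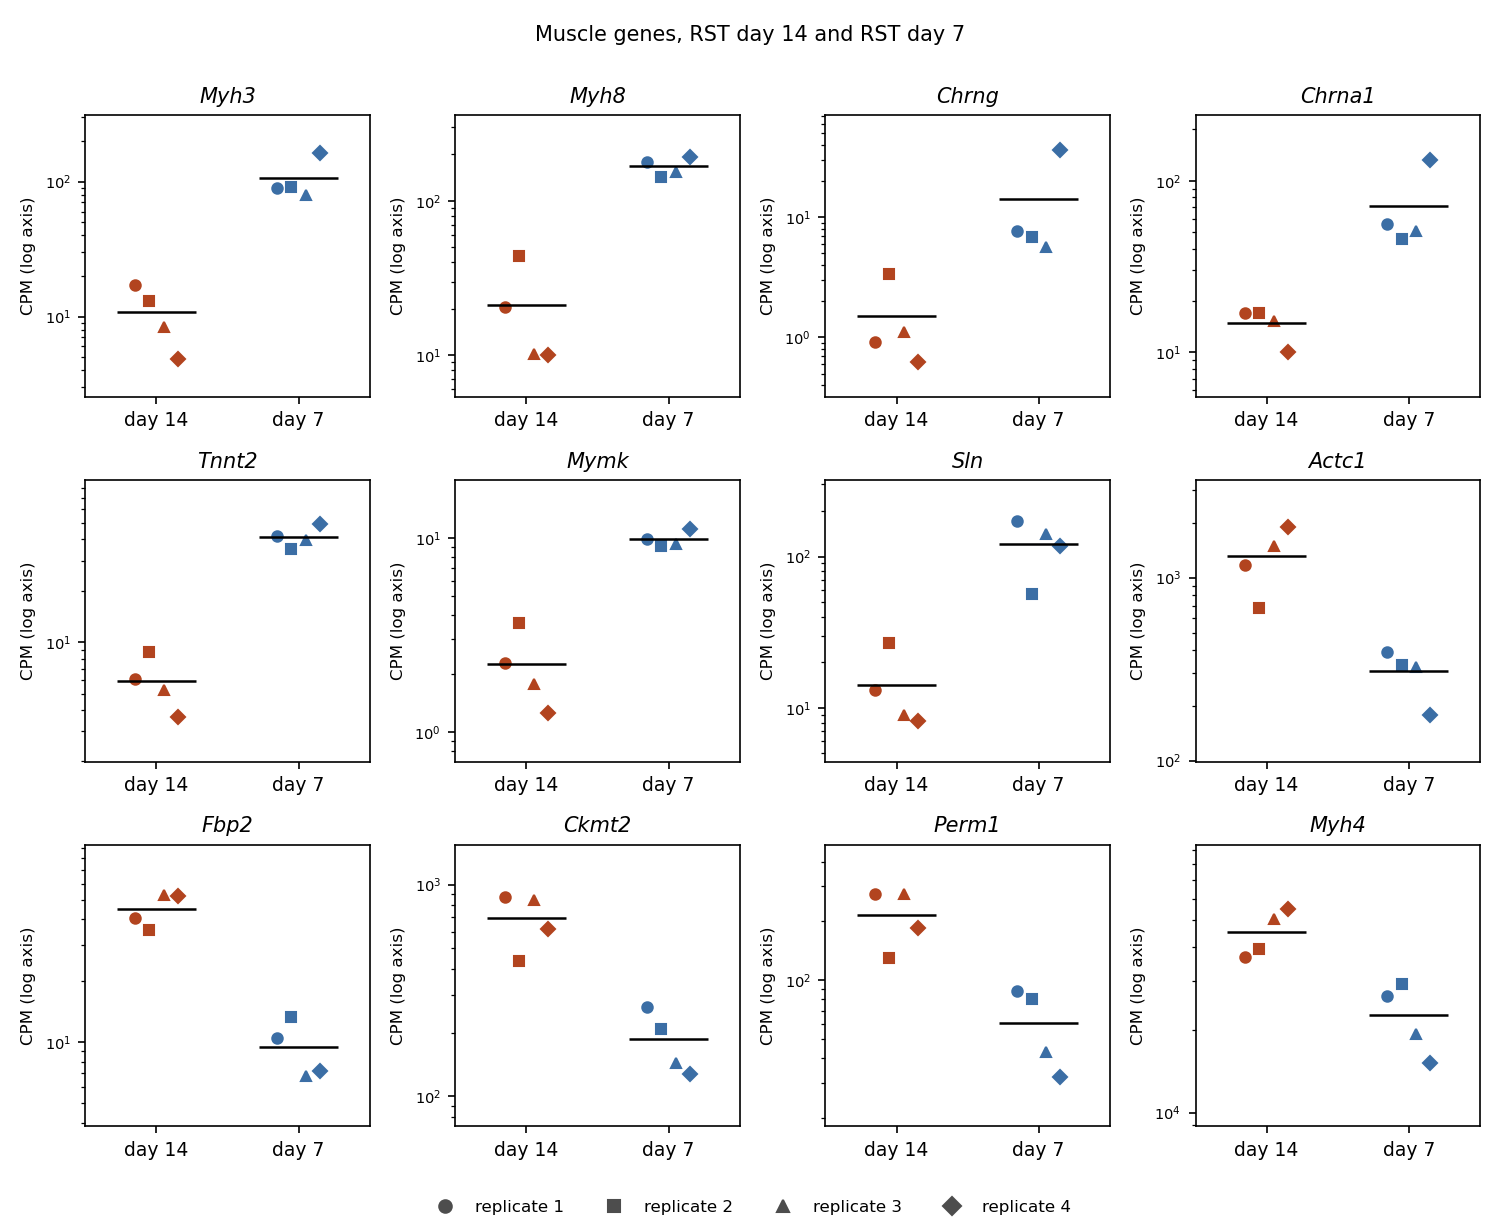
CPM on log axes of 12 muscle genes in the 4 RST day 14 libraries (left in each panel) and the 4 RST day 7 libraries, with replicate numbers by shape and bars at the means. The first 7 genes, from Myh3 to Sln, are lower in every day 14 library than in any on day 7, while Actc1, Fbp2, Ckmt2, Perm1 and Myh4 are higher in every one; day 7 replicate 4 (diamond) is the highest for Chrng at 36.1 CPM and Chrna1 at 133 CPM. Except for Chrna1 and Mymk, these genes were picked among genes without overlap.

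One gene of early muscle went the other way. Actc1, cardiac alpha-actin (chromosome 2, 114047282 to 114053548, minus strand), had 1180, 681, 1492 and 1898 CPM on day 14, against 394, 334, 324 and 178 CPM on day 7. Its log2 fold change of 2.09 ± 0.33 (edgeR adjusted p = 9.76e-05) was the second largest rise among the genes named for the size of their change. Acta1, the main actin of adult muscle, rose less, by 0.87 ± 0.17 on the same scale (edgeR adjusted p = 0.000607). Per kilobase of exon Actc1 stayed far below Acta1, at 811 ± 317 against 17336 ± 2592 CPM per kb on day 14 and 190 ± 56.7 against 9507 ± 1949 on day 7.

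Mature muscle genes rose, with 19 of 22 higher on day 14 and none lower (median log2 fold change 0.78). With total-count scaling 14 were higher and none lower, and without day 14 replicate 2 21 were higher. Myh4, the heavy chain of the fastest fibres (type 2B), had 36869, 39290, 50609 and 55113 CPM on day 14, against 26581, 29377, 19326 and 15191 CPM on day 7 (log2 fold change 1.01 ± 0.22, edgeR adjusted p = 0.00149). Atp2a1, the calcium pump of fast fibres, rose by 0.91 ± 0.20, Pygm, muscle glycogen phosphorylase, by 0.95 ± 0.19, and Eno3, muscle enolase, by 1.23 ± 0.21. Of 12 slow fibre genes 2 passed, both upward, Myl3 and Mybpc1. The number higher was 4 without day 14 replicate 2 or 4, and 1 with 2 lower without day 14 replicate 1. The call of Mybpc1 was lost without day 14 replicate 3 (edgeR adjusted p = 0.0535) and with total-count scaling (edgeR adjusted p = 0.0804). Day 14 replicate 1 had 623 CPM of Myh7, the slow heavy chain, while the other day 14 libraries had 64.6 to 121 CPM and the day 7 libraries 118 to 166 CPM. It did not pass (log2 fold change 0.64 ± 0.52, edgeR adjusted p = 0.341), and without that library the fold change was −0.64. The same library had 3483 CPM of Myh2, the type 2A chain, against 765 to 1925 CPM in the other day 14 libraries. Myh2 and Myl3 passed with it (1.18 ± 0.38 and 1.53 ± 0.44) and not without it (0.60, edgeR adjusted p = 0.166, and 0.77, edgeR adjusted p = 0.115). The call of Myh2 was also lost in the 8 libraries alone (edgeR adjusted p = 0.0686) and with total-count scaling (edgeR adjusted p = 0.0626).

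Most genes of oxidative metabolism rose. All 29 nuclear genes of the respiratory chain were higher on day 14 (median log2 fold change 0.91), as were 7 of the 8 mitochondrially encoded genes tested (0.98) and 18 of 20 genes of fatty acid oxidation and lipid uptake (0.98). The mitochondrially encoded genes mt-Co2, mt-Co3, mt-Atp6 and mt-Nd4l had too few counts to be tested. They therefore add little to the mitochondrial share of counts, and why they were low was not tested. Of 25 genes of glycolysis and hypoxia 15 were higher and 3 lower (0.74). With total-count scaling the counts were 29, 7 and 13 higher with none lower, and 14 higher with 6 lower. Cox7a1, a muscle subunit of cytochrome oxidase, had 183, 120, 200 and 182 CPM on day 14, against 81.2, 65.4, 54.2 and 48.8 CPM on day 7 (log2 fold change 1.46 ± 0.19, edgeR adjusted p = 3.67e-05). Ckmt2, the mitochondrial creatine kinase, had 874, 434, 849 and 616 CPM on day 14, against 264, 209, 143 and 127 CPM on day 7 (1.90 ± 0.25, edgeR adjusted p = 3.67e-05). No library of either gene overlapped between the days, and day 14 replicate 2 was the lowest of its group for both. Sdha, of succinate dehydrogenase, rose by 1.14 ± 0.15, mt-Co1, a core subunit of cytochrome oxidase, by 1.12 ± 0.19, and Acadvl, the first enzyme of long-chain fatty acid oxidation in mitochondria, by 1.14 ± 0.17. The element TNAAGGTCA, bound by the oestrogen-related receptors that regulate such genes, was searched on both strands. It was in 0 of 20 windows of 250 bases before the RefSeq start found for the 29 nuclear respiratory chain genes. It was in 1.14% of all windows and 0.706% of those of tested genes. At so low a share 0 of 20 is the likely result for any 20 windows, so the count decides nothing about these receptors.

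The largest rise among the genes named for the size of their change was that of Fbp2, the muscle fructose bisphosphatase that works towards glycogen. It had 40.8, 35.3, 52.4 and 51.9 CPM on day 14, against 10.4, 13.2, 6.81 and 7.21 CPM on day 7 (2.26 ± 0.29, edgeR adjusted p = 3.67e-05). Perm1, a muscle regulator of mitochondrial genes, had 273, 129, 273 and 184 CPM on day 14, against 87.9, 79.7, 43.3 and 32.1 CPM on day 7 (1.82 ± 0.28, edgeR adjusted p = 8.9e-05). The lactate exporter Slc16a3 (1.22 ± 0.15), the glycolytic enzyme gene Pfkm (1.2 ± 0.17) and Klf15, a regulator of muscle fuel use (1.07 ± 0.21), also rose. The nuclear receptor gene Nr4a1, an immediate early gene that exercise and adrenergic signals induce in muscle, had 115, 194, 405 and 310 CPM on day 14, against 71.6, 90.4, 82.4 and 64.7 CPM on day 7 (1.73 ± 0.33, edgeR adjusted p = 0.000509).

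Since muscle as a whole took a larger share of counts on day 14, single genes were also set against the summed mature muscle list, in CPM per 10000 CPM of that list, as a description. On this scale Acta1 was at 1285 ± 86.8 on day 14 and 1249 ± 76.2 on day 7 (log2 ratio of the means 0.04), and Myh4 at 2185 ± 181 and 1906 ± 206 on the same days (0.20). Both genes belong to the list. Fbp2 was at 2.16 ± 0.074 on day 14 and 0.793 ± 0.131 on day 7 (1.45), with no overlap. Actc1 (1.24), Ckmt2 (1.11), Perm1 (1.06) and Cox7a1 (0.63), all chosen here for their rise in CPM, were likewise higher relative to muscle. Acadm, an enzyme of fatty acid oxidation, was at 0.52 and Cox6a2, a muscle subunit of cytochrome oxidase, at 0.32. Both Acadm and Cox6a2 overlapped between the days on this scale. The fast troponin gene Tnnt3 was at −0.10. The summed nuclear respiratory chain list was at 13600 ± 2776 CPM on day 14 and 7196 ± 1284 CPM on day 7, and the mature muscle list at 207803 ± 33582 and 117650 ± 26817 CPM on the same days. Myh3 was at 0.557 ± 0.327 per 10000 CPM of muscle on day 14 and 9.76 ± 5.60 on day 7 (−4.13).

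Most acute inflammatory genes fell. Of 16 acute inflammatory cytokines and chemokines 9 were lower on day 14 and none higher (median log2 fold change −1.2), 10 without day 14 replicate 2 and 10 with total-count scaling. The summed level of the list was 80.6, 120, 43.4 and 42.3 CPM on day 14 and 133, 128, 180 and 194 CPM on day 7. Ccl2, a chemokine for monocytes, had 4.02, 5.64, 3.01 and 3.46 CPM on day 14, against 10.6, 11, 11.5 and 13 CPM on day 7 (−1.50 ± 0.29, edgeR adjusted p = 0.000439). Cxcl5, which draws neutrophils, had 5.42, 10.4, 2.75 and 2.34 CPM on day 14, against 24.6, 18.8, 27.9 and 37.3 CPM on day 7 (−2.35 ± 0.54, edgeR adjusted p = 0.00183, and −2.96 without day 14 replicate 2). Ccl7 (−1.62 ± 0.35) and the interleukin-6 family cytokines Il11 (−2.21 ± 0.34) and Lif (−1.69 ± 0.36) fell as well. Il1b, the cytokine interleukin-1 beta, had 3.19 to 19.9 CPM on day 14 and 13.3 to 23.8 CPM on day 7 and did not pass (−0.75 ± 0.58, edgeR adjusted p = 0.321).

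Some markers of recruited macrophages fell, and for resident ones the count depended on single libraries. Of 20 monocyte and recruited macrophage markers 8 were lower and none higher (median −0.72), which became 11 without day 14 replicate 2, 3 without day 14 replicate 3, 5 without day 14 replicate 1, and 4 without day 14 replicate 4 or day 7 replicate 3. The summed level of this list overlapped between the days, at 3604 ± 1155 CPM on day 14 and 3975 ± 532 CPM on day 7. Of 15 tissue-resident macrophage markers 1 was lower and 1 higher (median −0.10), and the higher one was Retnla, which alternatively activated macrophages secrete. Of the resident markers 5 were lower without day 14 replicate 2, 7 with total-count scaling, and 0 without day 14 replicate 1 or 3 or day 7 replicate 2, 3 or 4. The number higher was 2 without day 14 replicate 1 or day 7 replicate 2. Arg1, the arginase of wound macrophages (chromosome 10, 24915221 to 24927484, minus strand), had 1.21, 2.58, 0.753 and 0.81 CPM on day 14, against 20.3, 8.65, 21.5 and 15.8 CPM on day 7 (−3.56 ± 0.44, edgeR adjusted p = 2.68e-05, and −4.16 without day 14 replicate 2). Retnla, in contrast, had 8.8, 8.31, 8.69 and 10.8 CPM on day 14, against 5.89, 3.5, 2.23 and 2.63 CPM on day 7 (1.37 ± 0.35, edgeR adjusted p = 0.00403). Neither gene overlapped between the days. Ms4a7, a macrophage membrane protein, fell by 1.11 on the log2 scale and the Fc receptor gene Fcgr1 by 0.98. Of 15 neutrophil genes none passed in edgeR (median −0.58). At an unadjusted p below 0.05 there were 2, both lower, and in DESeq2 0, with 2 lower without day 14 replicate 2 and 3 lower with total-count scaling. Mmp9, the gelatinase of neutrophil granules and osteoclasts, had 29.2 to 98.9 CPM on day 14 and 88.3 to 163 CPM on day 7 (−1.05 ± 0.50, edgeR adjusted p = 0.0998).

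Lymphoid, antigen presenting and other immune lists had few calls. Of 12 dendritic cell genes 3 were lower, of 10 class II genes 1, of 25 type I interferon response genes 3 and of 14 complement genes 3, with none higher in any of them (medians −0.35, −0.28, −0.35 and −0.04). For comparison, 18% of all genes tested were lower. With total-count scaling, where 7727 of all 16149 genes were lower, 5 dendritic cell, 9 class II, 10 interferon and 6 complement genes were lower. Without day 14 replicate 2 the counts were 3, 2, 8 and 5 lower, and 1 complement gene was higher, while no complement gene was lower without day 14 replicate 3 or day 7 replicate 3 and 1 without day 14 replicate 4. No class II or interferon gene was lower without day 14 replicate 3 or 4 or day 7 replicate 3 or 4, and no class II gene without day 14 replicate 1 or day 7 replicate 2. Flt3, the receptor that maintains dendritic cells, had 0.443 to 0.822 CPM on day 14 and 1.22 to 2.26 CPM on day 7 (−1.37 ± 0.29, edgeR adjusted p = 0.001). None of 7 T cell, 8 B cell or 10 erythroid genes passed in edgeR. At an unadjusted p below 0.05 there were 1, 1 and 0, all higher, and in DESeq2 0, 1 and 0. In edgeR without day 14 replicate 2, 1 T cell gene was lower and the B cell list had 1 higher and 1 lower. Total-count scaling gave 1 lower in each of the B cell and erythroid lists. Without day 7 replicate 2, 1 erythroid gene was lower. In the plasma cell list 2 of 10 were higher, Irf4, a transcription factor of plasma cells (1.07 ± 0.26), and Ighm, the heavy chain of IgM, with 24.7, 38.3, 29.7 and 49.3 CPM on day 14, against 21.6, 20.9, 19.1 and 10.3 CPM on day 7 (0.98 ± 0.27, edgeR adjusted p = 0.00746), though 4 members were lower with total-count scaling and 3 without day 14 replicate 2, with 2 higher in both. The granzymes fell, Gzme to 0.822, 0.741, 0.0886 and 0.585 CPM on day 14, against 3.93, 3.18, 4.58 and 9.69 CPM on day 7 (−3.23 ± 0.58, edgeR adjusted p = 0.000397), and Gzmd by 3.50 on the log2 scale. These genes are near-identical copies, so the split of reads between them is uncertain. In the cytotoxic and NK cell list 2 of 5 were lower, Gzma and Gzmb, and both calls were lost without day 7 replicate 4 (edgeR adjusted p = 0.0687 and 0.101). That of Gzma was also lost without day 14 replicate 3 or 4 (edgeR adjusted p = 0.0625 and 0.0757), and that of Gzmb without day 14 replicate 4 (edgeR adjusted p = 0.0631). Of 7 mast cell genes 1 was higher, the transcription factor gene Gata2 (0.49 ± 0.15, edgeR adjusted p = 0.0164), and none lower, and no member was higher without day 14 replicate 1, without day 7 replicate 3 or 4, or with total-count scaling.

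Cell division genes fell almost without exception. Of 27 cell cycle genes 26 were lower on day 14 and none higher (median log2 fold change −1.21), 26 without day 14 replicate 2 and 27 with total-count scaling. The summed level of the list was 182, 269, 140 and 183 CPM on day 14 and 392, 405, 442 and 416 CPM on day 7. Genes expressed late in the cycle often carry CCAAT boxes, bound by NF-Y, and the element TTTGAA (CHR), bound by the DREAM and MuvB complexes. The 250 bases before the RefSeq start of Cdk1, the mitotic kinase (chr10:69352913-69353162, minus strand), and Ccnb2, cyclin B2 (chr9:70421555-70421804, minus strand), on GRCm38.p6 from RefSeq, are shown because both fell and both windows hold both motifs. Capitals mark CCAAT, its reverse complement ATTGG, and TTTGAA, which overlap nowhere in these windows.
Cdk1: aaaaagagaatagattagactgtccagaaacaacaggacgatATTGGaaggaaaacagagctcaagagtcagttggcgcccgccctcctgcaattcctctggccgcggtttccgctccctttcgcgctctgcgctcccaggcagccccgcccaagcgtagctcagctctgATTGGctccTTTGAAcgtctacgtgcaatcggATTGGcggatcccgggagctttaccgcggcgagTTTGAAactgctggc
Ccnb2: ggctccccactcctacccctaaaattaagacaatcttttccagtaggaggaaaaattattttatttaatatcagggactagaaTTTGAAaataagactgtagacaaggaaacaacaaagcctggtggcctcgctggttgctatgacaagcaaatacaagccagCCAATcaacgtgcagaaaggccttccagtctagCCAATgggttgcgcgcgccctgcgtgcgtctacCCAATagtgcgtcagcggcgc
On either strand CCAAT was in 18 of the 21 windows found for the 26 members that fell (85.7%) and in 34.5% of all windows. TTTGAA was in 8 of the 21 (38.1%) and in 16.3% of all windows.

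Cdk1 had 4.93, 8.41, 3.55 and 5.26 CPM on day 14, against 16.4, 15.4, 18.7 and 17.8 CPM on day 7 (log2 fold change −1.61 ± 0.33, edgeR adjusted p = 0.000727). Mki67, the proliferation antigen Ki-67, had 17.3, 32.6, 10.6 and 16.8 CPM on day 14, against 39.5, 46.4, 48.9 and 41.5 CPM on day 7 (−1.18 ± 0.34, edgeR adjusted p = 0.00856). Day 14 replicate 2 was the highest of its group for both and still below each day 7 library. Genes of DNA replication fell by like amounts, among them Mcm5 and Mcm6 of the replicative helicase (−1.37 ± 0.24 and −1.21 ± 0.20), Rrm2, which makes deoxynucleotides (−1.43 ± 0.27), and Ccne1, the cyclin that opens S phase (−1.47 ± 0.29). Ccnb2 fell by 1.28.

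Some matrix genes of activated fibroblasts fell. Of 31 fibrillar matrix and activated fibroblast genes 14 were lower and none higher (median log2 fold change −0.65), 21 without day 14 replicate 2 and 21 with total-count scaling, but 3 without day 14 replicate 3. Leaving out day 14 replicate 1 or 4, or day 7 replicate 3 or 4, gave 7 in each case. Postn, periostin, a matrix protein of healing tissue (chromosome 3, 54361109 to 54391037, plus strand), had 601, 1349, 408 and 586 CPM on day 14, against 2086, 1846, 2188 and 2037 CPM on day 7 (−1.47 ± 0.35, edgeR adjusted p = 0.00236). Acta2, the smooth muscle actin of myofibroblasts and vessel walls, had 50.9, 75.1, 46.4 and 55.2 CPM on day 14, against 184, 160, 177 and 185 CPM on day 7 (−1.63 ± 0.17, edgeR adjusted p = 5.95e-06). The groups were well apart for both. The main collagen genes overlapped. Col1a1 had 5240, 9630, 3721 and 5120 CPM on day 14, against 9444, 10819, 12766 and 11656 CPM on day 7, and passed (−0.91 ± 0.33, edgeR adjusted p = 0.0314) but not without any one of day 14 replicates 1, 3 and 4 or day 7 replicates 3 and 4 (edgeR adjusted p from 0.0608 to 0.114). Its partner chain Col1a2 was at −0.74 ± 0.29 (edgeR adjusted p = 0.0504) and Col3a1, of collagen III, at −0.59 ± 0.30 (edgeR adjusted p = 0.118). Adam12, a metalloprotease of activated mesenchyme, fell by 1.25 on the log2 scale.

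Genes for making and secreting collagen fell in part. Of 25 collagen modifying and crosslinking enzymes 11 were lower and 1 higher (median −0.55), 18 and 1 without day 14 replicate 2, 2 higher without day 14 replicate 3 or day 7 replicate 2 or 4, 7 lower without day 14 replicate 3 or 4, and 23 and 1 with total-count scaling. Lox, lysyl oxidase, which crosslinks collagen, had 214, 357, 150 and 195 CPM on day 14, against 472, 508, 582 and 537 CPM on day 7 (−1.20 ± 0.33, edgeR adjusted p = 0.0072). P3h1, which hydroxylates proline in collagen, fell by 0.85, Plod3, which modifies lysine, by 0.63, and Colgalt1, which adds galactose, by 0.48. The exception was Colgalt2, a second galactosyltransferase, with 9.87, 5.7, 6.21 and 5.8 CPM on day 14, against 3.65, 3.85, 4.22 and 2.27 CPM on day 7 (0.97 ± 0.22, edgeR adjusted p = 0.00172). Of 28 secretory pathway genes and chaperones of the endoplasmic reticulum 17 were lower and 4 higher (median −0.41), and 23 lower and none higher with total-count scaling. Among them Pdia6, a disulfide isomerase (−0.77 ± 0.13), Hsp90b1, a chaperone (−0.67 ± 0.12), and Surf4, a cargo receptor (−0.40 ± 0.07), fell. Serpinh1, the collagen chaperone, stood at 414, 637, 337 and 397 CPM on day 14, against 705, 765, 858 and 855 CPM on day 7 (−0.83 ± 0.22, edgeR adjusted p = 0.00505).

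Of 23 matrix proteases and inhibitors 5 were lower and 2 higher (median −0.25), 9 lower without day 14 replicate 2 and with total-count scaling, 2 lower without day 14 replicate 3 or day 7 replicate 3, and 3 lower without day 14 replicate 1 or 4. The number higher was 1 without day 14 replicate 4 or day 7 replicate 4. Over all genes tested, 18% were lower and 20.9% higher. Timp4, a metalloprotease inhibitor that muscle and fat express, had 15.6, 7.51, 20.6 and 14.6 CPM on day 14, against 3.1, 4.55, 4.81 and 2.7 CPM on day 7 (1.93 ± 0.35, edgeR adjusted p = 0.000287). Mmp23 fell by 1.27 on the log2 scale.

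**Figure D4:**
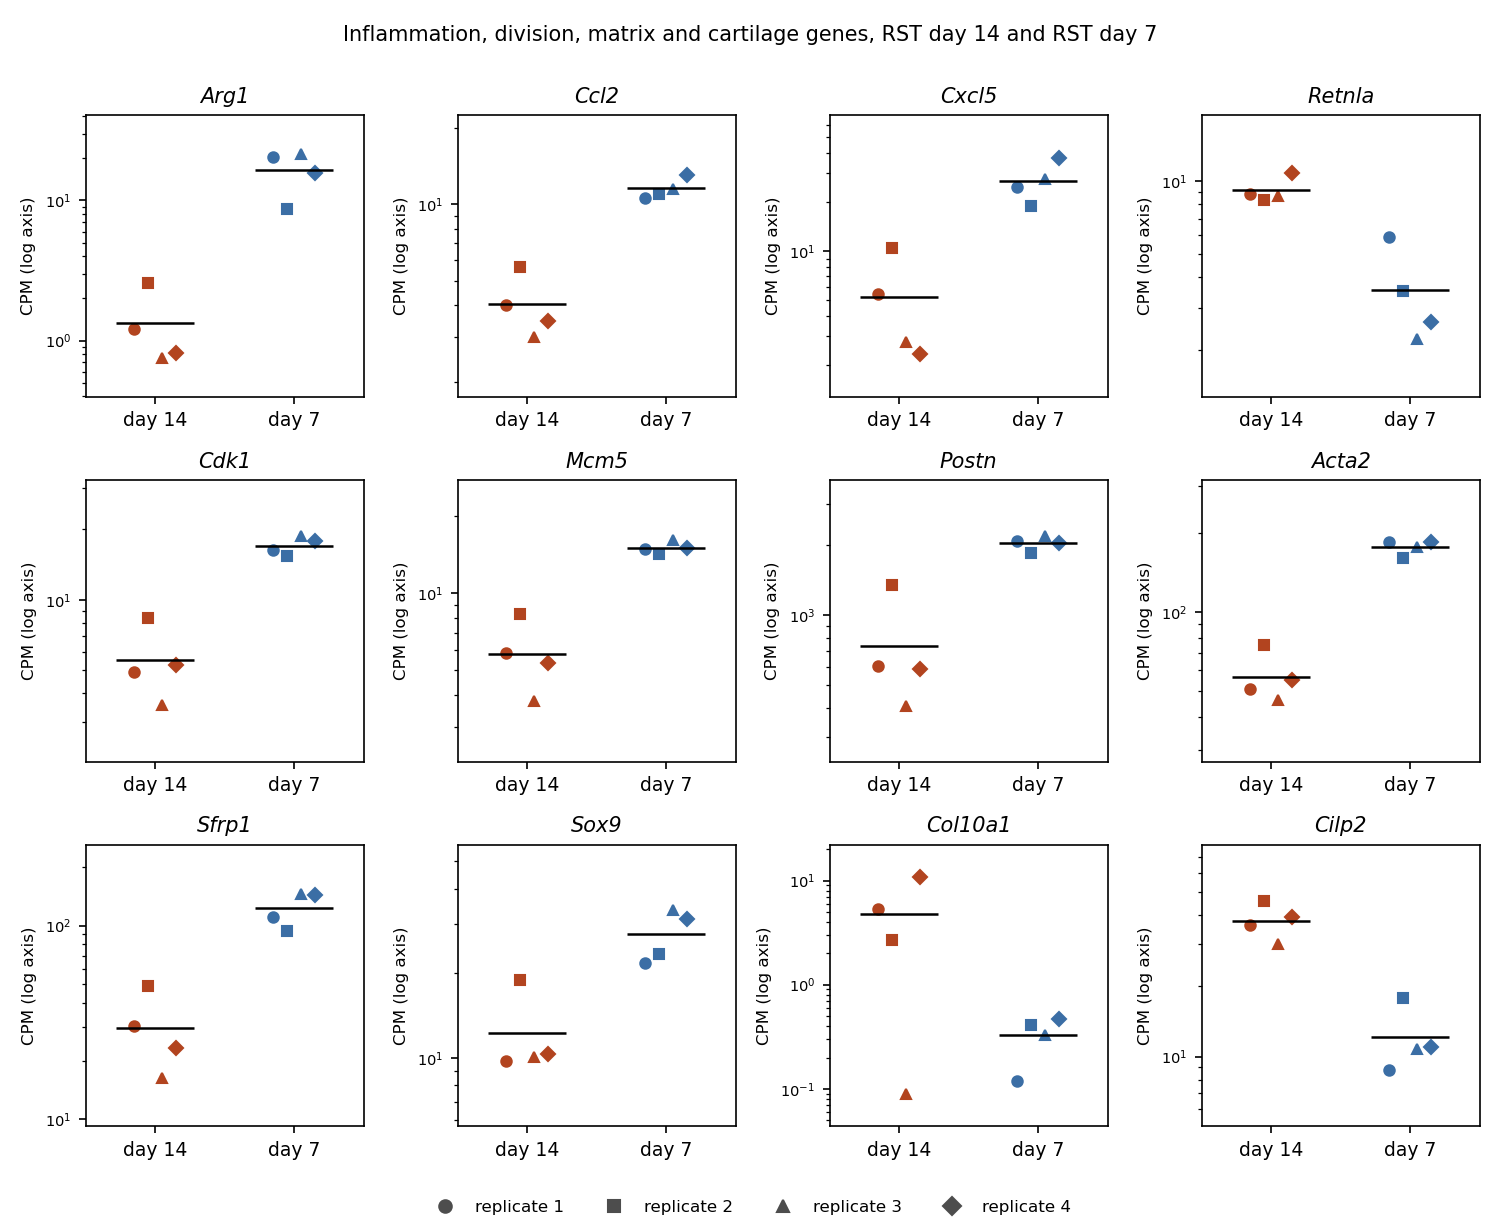
CPM on log axes of 12 genes of inflammation, division, matrix and cartilage in the 4 RST day 14 libraries (left in each panel) and the 4 RST day 7 libraries, with replicate numbers by shape and bars at the means. All but Col10a1 are fully separated between the days; day 14 replicate 3 (triangle) has 0.0886 CPM of Col10a1 while the other day 14 libraries have 2.71 to 10.8 CPM.

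Some cartilage genes fell and others rose. Of 21 chondrocyte and cartilage matrix genes 6 were lower and 2 higher (median −0.48), 12 lower and 1 higher with total-count scaling, 1 lower without day 14 replicate 3, and 2 lower without day 7 replicate 3 or 4. Sox9, the transcription factor that commits cells to cartilage, had 9.72, 18.9, 10.1 and 10.3 CPM on day 14, against 21.7, 23.5, 33.6 and 31.2 CPM on day 7 (−1.16 ± 0.22, edgeR adjusted p = 0.000395). Chad, chondroadherin, a leucine-rich protein of cartilage and tendon, had 16.8, 12, 14.1 and 13 CPM on day 14, against 4.55, 6.04, 4.58 and 3.93 CPM on day 7 (1.54 ± 0.27, edgeR adjusted p = 0.000217). The groups did not overlap for either. Col2a1, the main cartilage collagen, had 167, 71.1, 12.5 and 243 CPM on day 14 and 84.7, 59.9, 65.9 and 57.5 CPM on day 7 (0.88 ± 0.64, edgeR adjusted p = 0.286), and Acan, the large proteoglycan, 51.6 to 155 CPM and 130 to 194 CPM on the same days (−0.59 ± 0.33, edgeR adjusted p = 0.159).

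Of 16 hypertrophic cartilage and endochondral genes 6 were higher and 2 lower (median 0.39), but 3 and 3 with total-count scaling and 6 and 3 without day 14 replicate 2. One was lower without day 14 replicate 3 or 4 or day 7 replicate 4. Col10a1, the collagen of hypertrophic chondrocytes (chromosome 10, 34389981 to 34397085, plus strand), had 5.32, 2.71, 0.0886 and 10.8 CPM on day 14, against 0.118, 0.413, 0.327 and 0.468 CPM on day 7 (3.79 ± 0.82, edgeR adjusted p = 0.00126, and 2.98 without day 14 replicate 4). These overlap, since day 14 replicate 3 was the lowest library of all 8, as it also was for Col2a1. Alpl, the phosphatase of mineralising cells, had 18.8, 12.6, 17.6 and 17.2 CPM on day 14, against 10.2, 9.73, 9.36 and 8.36 CPM on day 7 (0.81 ± 0.19, edgeR adjusted p = 0.00264). Not all risers of this list are particular to cartilage. Vegfa, the vessel growth factor that enlarged chondrocytes and muscle both make, had 272, 161, 296 and 228 CPM on day 14, against 141, 132, 94.1 and 113 CPM on day 7 (0.99 ± 0.15, edgeR adjusted p = 7.89e-05). Runx3, a transcription factor of maturing chondrocytes, fell by 1.06 on the log2 scale.

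Bone and synovial lists were mixed, where 18% of all genes tested were lower and 20.9% higher. Of 17 osteoblast genes 2 were higher and 1 lower (median 0.43), and of 16 osteoclast genes 4 were lower and 1 higher (median −0.51), with 10 lower and none higher under total-count scaling, 6 lower without day 14 replicate 2 and 2 lower without day 14 replicate 3 or day 7 replicate 3. Smpd3, a sphingomyelinase needed for bone mineral, rose (1.37 ± 0.29, edgeR adjusted p = 0.000986), while the osteoclast receptor gene Oscar and the fusion gene Ocstamp fell (−1.27 ± 0.34 and −1.25 ± 0.37). Of 17 synovial lining genes 3 were higher and 4 lower (median 0.03), and of 16 tendon and ligament genes 3 were higher and 3 lower (median 0.04). In the synovial list 1 was higher without day 14 replicate 1 or day 7 replicate 4, and 2 were lower without day 14 replicate 3 or 4. In the tendon list 1 was lower without day 14 replicate 1 or 4 or day 7 replicate 3, and 0 without day 14 replicate 3. Of the osteoblast genes 4 were higher without day 14 replicate 3, 2 were lower without day 14 replicate 2, and 0 without day 14 replicate 3 or 4 or day 7 replicate 4. Has2, a hyaluronan synthase, had 3.29, 11.6, 4.74 and 5.17 CPM on day 14, against 16.7, 17.4, 21 and 30.2 CPM on day 7 (−1.76 ± 0.32, edgeR adjusted p = 0.000293). Prg4, with the levels given above, did not pass (0.02 ± 0.48, edgeR adjusted p = 0.98). Pdpn, podoplanin of the synovial surface, fell by 0.96. Tppp3, which marks tendon sheath cells, rose to 62.1 to 85.2 CPM on day 14, against 32.6 to 42.7 CPM on day 7 (0.95 ± 0.13, edgeR adjusted p = 5.14e-05), and the corneal and tendon proteoglycan gene Kera rose by 0.99 ± 0.25.

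Wnt and TGF-beta genes moved in both directions, where 18% of all genes tested were lower and 20.9% higher. In the Wnt list 6 of 25 genes were lower and 3 higher (median −0.08), with 11 lower and 2 higher under total-count scaling and 8 lower and 4 higher without day 14 replicate 2. Sfrp1, a secreted Wnt inhibitor, had 30.2, 49.0, 16.4 and 23.3 CPM on day 14, against 110, 94.1, 146 and 143 CPM on day 7 (−2.04 ± 0.35, edgeR adjusted p = 0.000169). The Wnt amplifiers moved the same way as this inhibitor, with the ligand gene Rspo3 at −1.66 ± 0.25 and its receptor gene Lgr5 at −1.75 ± 0.28 (−2.34 without day 14 replicate 2), as did the receptor gene Fzd2 at −1.09 ± 0.24. In the TGF-beta and BMP list 10 of 27 genes were lower and 5 higher (median −0.31). Without day 14 replicate 2 these were 12 and 6. With total-count scaling 15 were lower and none higher, and the number lower was 2 without day 14 replicate 3 or day 7 replicate 4 and 4 without day 14 replicate 4. The number higher was 3 without day 14 replicate 1 or 4. Tgfb3, a TGF-beta ligand, fell by 0.45 and Fst, the activin-binding follistatin, by 0.63.

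A minority of vessel genes rose, by small amounts, on the TMM scale, and most of these calls were lost with total-count scaling. Of 22 endothelial genes 7 were higher and 1 lower (median 0.16), and of 14 pericyte and smooth muscle genes 5 were higher and 2 lower (median 0.05), while total-count scaling gave 1 higher and 5 lower, and 2 higher and 8 lower. Flt1, a VEGF receptor, had 61.3, 46.9, 58.6 and 54.3 CPM on day 14, against 32.9, 34.8, 32.0 and 33.6 CPM on day 7 (0.73 ± 0.12, edgeR adjusted p = 0.000182). Rgs5, a pericyte signalling regulator, rose by 0.63 ± 0.11, while Cnn1, calponin of contractile smooth muscle and myofibroblasts, fell by 1.89. Of 17 adipocyte genes 5 were higher and none lower (median 0.24), 4 with total-count scaling and 7 without day 14 replicate 2. Among them were Pnpla2, the first lipase of fat droplets (1.15 ± 0.21), and Lpl, lipoprotein lipase (1.04 ± 0.26), which muscle also expresses. Over the whole list the log2 fold change was positive for 11 genes and negative for 6, and the cell type behind these rises was not tested.

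Nerve and surface tissue lists had few calls. Of 16 Schwann cell and nerve genes 2 were higher and 1 lower (median 0.27), 4 and 2 without day 14 replicate 2, and 1 and 4 with total-count scaling. The number higher was 1 without day 14 replicate 1 or 3 or day 7 replicate 3 or 4. Gap43, a protein of growing axons and of repair Schwann cells, had 1.02, 2.38, 1.15 and 1.3 CPM on day 14, against 2.94, 2.54, 3.47 and 3.39 CPM on day 7 (−1.05 ± 0.27, edgeR adjusted p = 0.00467). Nrg1, neuregulin, which Schwann cells and axons use to signal, had 0, 0.709, 0.0886 and 0.18 CPM on day 14, against 1.45, 1.53, 3.6 and 2.31 CPM on day 7 (−2.99 ± 0.55, edgeR adjusted p = 0.000308, and −4.52 without day 14 replicate 2). Of 5 skin genes 2 were lower, at a summed 16.6 to 18.6 CPM on day 14 and 19 to 23.1 CPM on day 7, with 1 lower without any 1 of the day 14 replicates or day 7 replicate 3 and 0 without day 7 replicate 1 or 4. Krt1, of this list, was listed at 0 in all 8 libraries, but so was mt-Nd4l, a respiratory chain gene that every cell uses, so a 0 here need not mean absence. Of 21 immediate early and dissection stress genes 3 were higher and 2 lower (median 0.10), 3 and 4 without day 14 replicate 2, 1 lower without day 14 replicate 1 or 3, with summed levels of 558 to 1131 CPM on day 14 and 590 to 798 CPM on day 7. Of 18 clock genes 5 were higher and 1 lower, against 20.9% and 18% of all genes tested, and 2 and 6 with total-count scaling. The number lower was 2 without day 14 replicate 4 and 0 without day 14 replicate 1 or day 7 replicate 4. Arntl, the core activator, had 20.3 to 33.0 CPM on day 14 and 10.1 to 13.5 CPM on day 7 (1.08 ± 0.17, edgeR adjusted p = 0.000115). The labels used here give no time of day of sampling, and its part in the clock result was not tested.

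**Figure D5:**
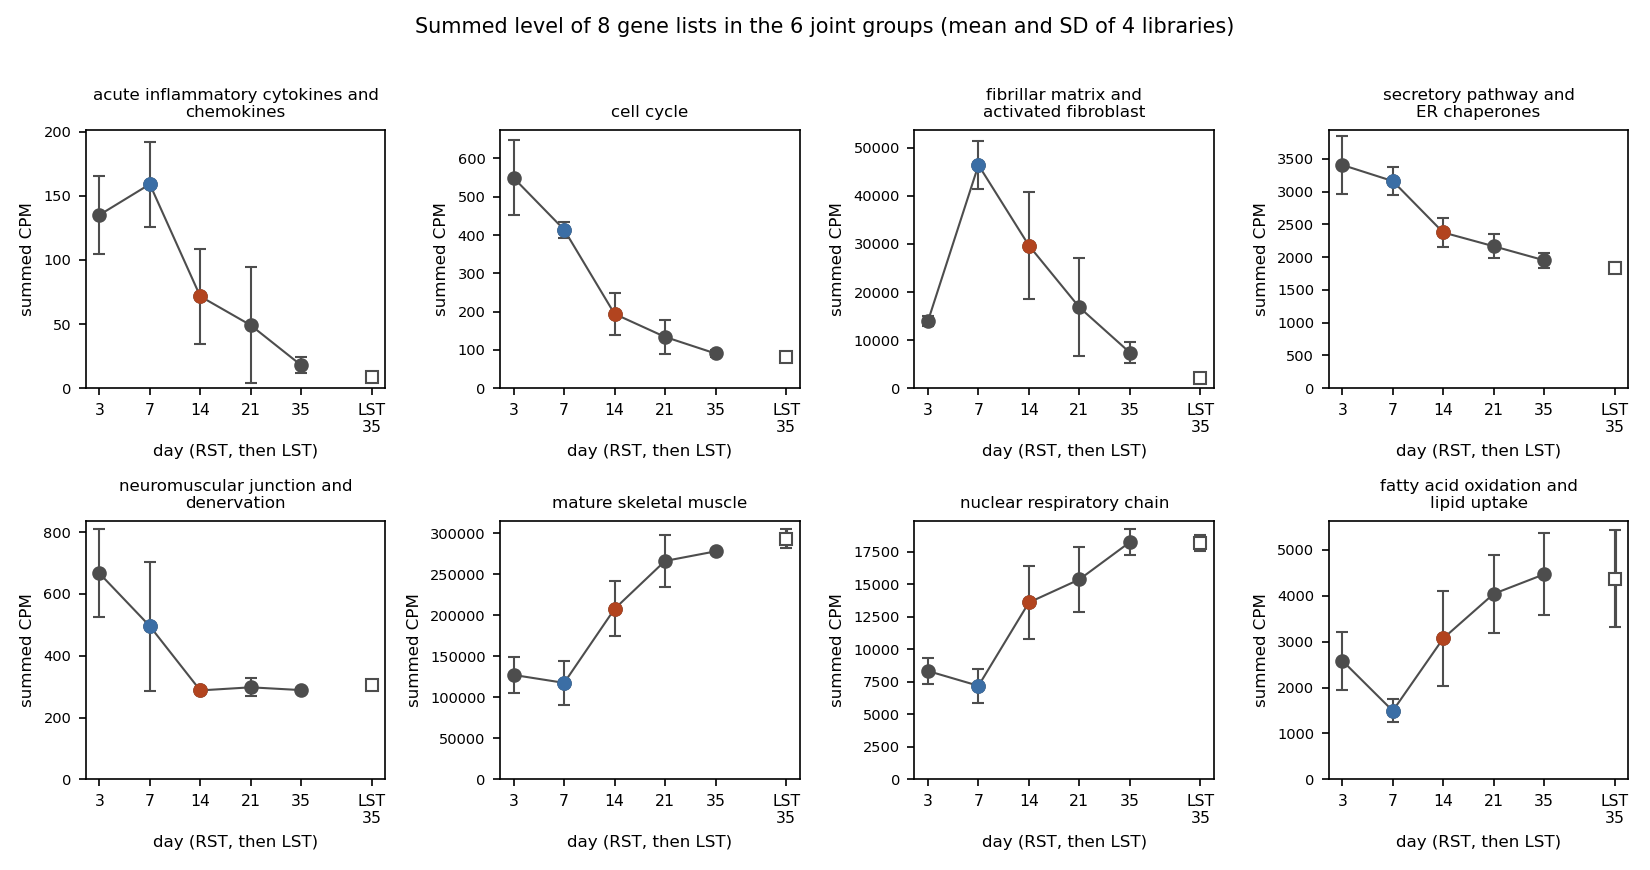
Summed CPM of 8 gene lists on RST days 3, 7, 14, 21 and 35 and in LST day 35 (open square), as means with SDs of 4 libraries; days are spaced evenly, with day 7 in blue and day 14 in red. The mean fibrillar matrix level is highest on day 7, at 46397 CPM, and the neuromuscular junction level is 288 CPM on day 14 and 289 to 298 CPM on RST days 35 and 21.

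The summed levels of 4 lists were followed over the whole course, as a description. The summed level of the neuromuscular junction list was 667 ± 143, 496 ± 209, 288 ± 8.76, 298 ± 28.9 and 289 ± 5.99 CPM on RST days 3, 7, 14, 21 and 35 and 307 ± 7.86 CPM in LST day 35 (SD, n = 4 each). The day 14 mean differed from those of days 21 and 35 by less than the SD of day 21. Day 7 replicate 4, at 809 CPM, raised the day 7 mean, since the other day 7 libraries were at 378 to 403 CPM, and the day 14 libraries were at 281 to 300 CPM. The fibrillar matrix list was at 13988 ± 1047, 46397 ± 4927, 29659 ± 11086, 16820 ± 10201 and 7421 ± 2254 CPM on the same RST days and at 2223 ± 185 CPM in LST day 35. The cell cycle list was at 549 ± 97.9, 414 ± 21.3, 194 ± 54.4, 134 ± 45.0 and 90.7 ± 8.96 CPM, with 80.8 ± 7.48 CPM in LST day 35. The mature muscle list was at 127289 ± 22455, 117650 ± 26817, 207803 ± 33582, 266174 ± 31574 and 277862 ± 3328 CPM, with 293173 ± 11366 CPM in LST day 35.

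The following 7 days brought fewer calls. Between RST day 21 and day 14, 119 genes passed (0.737%), 14 higher on day 21 (0.0867%) and 105 lower (0.65%). Both steps use the day 14 libraries, so the difference between them was tested directly. It passed for 1 gene in edgeR (0.00619%) and for 62 in DESeq2, and for 460 in edgeR without day 14 replicate 2. It passed for 2 to 11 genes when day 14 replicate 3, any day 7 replicate, or day 21 replicate 1, 2 or 4 was left out, and for 0 in edgeR with total-count scaling, where 1874 genes had an unadjusted p below 0.05. The 1 gene was Cilp2, a matrix protein of cartilage and tendon (chromosome 8, 69880369 to 69887687, minus strand). It had 36.1, 45.5, 30.1 and 39.2 CPM on day 14, against 8.79, 17.7, 10.8 and 11 CPM on day 7 (1.64 ± 0.21, edgeR adjusted p = 3.67e-05). Over RST days 3, 7, 14, 21 and 35 its mean was 1.92, 12.1, 37.7, 21.2 and 12.3 CPM, and it was 6.42 CPM in LST day 35. The log2 fold change of day 21 over day 14 was −0.83 ± 0.21 (edgeR adjusted p = 0.0576), and the difference of the steps 2.47 ± 0.35 (edgeR adjusted p = 0.00603). Myh3 was at 48.9, 106, 10.8, 5.64 and 4.30 CPM on the same RST days and 3.77 CPM in LST day 35, with a difference of steps of −2.34 ± 0.63 that did not pass (edgeR adjusted p = 0.177).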

How the data were processed

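RNA of joint soft tissue was sequenced in 24 libraries, of which the 4 of RST day 14 and the 4 of RST day 7 are compared here. Per the labels' protocols, tissue was flash frozen, RNA was taken with Trizol, and libraries were made with an NEBNext Ultra II kit from total RNA. The submitters' processing notes name fastp, STAR and the build mm10 without versions. The authors deposited raw counts, whole numbers for each gene with no normalization. How reads were assigned to genes (program, annotation, strand, several matches) is not given in the sources used here, so antisense, overlapping and near-identical genes are uncertain. Of 36604 genes, 36591 were matched to GENCODE M21 (mm10) for names and 1-based positions. No table column was left unused, and the 18 lymph node libraries were not used.

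The analysis used edgeR 4.0.16 in R 4.3.3: filterByExpr (minimum count 10), TMM scaling and the quasi-likelihood F test in 1 fit over the 24 joint libraries in 6 groups, with a common estimate of spread. P-values were adjusted by Benjamini-Hochberg over the genes of each comparison. Each standard error is the size of the log2 fold change divided by the square root of F. CPM are on the TMM scale with SDs over libraries, and log2 CPM use a prior count of 2. Shares of counts were compared by exact two-sided permutation with scipy 1.17.1. In data simulated for RST day 14 against RST day 7 with 16149 genes, 100 genes were changed 2-fold and 100 by 1.5-fold. As many went up as down, and all had simulated day 7 means of at least 50 counts. All other genes kept their day 7 level. In that setting 88% of 2-fold and 66% of 1.5-fold changes were recovered, with 7 false calls (4.35% of calls). Changes as wide as the real ones, and genes with lower counts, were not covered.

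The libraries compared, the 43 lists (10 to 31 genes each, from textbook knowledge) and the rule for naming genes were chosen with earlier results of these data known. By size, the rule took the 12 largest changes each way and the 6 largest each way in CPM. These were picked among called genes without overlap whose higher group averaged 50 or more raw counts, with predicted genes, pseudogenes and receptor segments left out. It also took up to 4 members of each list by smallest adjusted p (2 where none passed). For list members no limit was set on overlap or counts, so some of them overlap or have few counts. Some genes that the rule takes are not reported here. Genes outside this rule, chosen after their values were seen, are Acadm, Acan, Ccnb2, Cdk1, Chrne, Col1a1, Col1a2, Col2a1, Col3a1, Cxcl5, Il1b, Lox, Mest, Mki67, Musk, Myh2, Myh7, Mymk, Mymx, Myog, Pax7 and Prg4. Promoter windows are the 250 bases before the RefSeq start on GRCm38.p6, 1 per gene, and 11752 tested genes had one. No 2 replicates agreed within sampling noise (lowest chi-square per degree of freedom 13.9). Alternatives were DESeq2 1.42.0, its size factors in edgeR, other filters, other sample sets, a replicate block, leaving out each library, and, chosen after seeing the data, total-count scaling and leaving out muscle and respiratory genes before scaling.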

Additional observations from a re-analysis of the deposited data

Results flagged for a closer look

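Of 250 groups of 4 values checked, 13 had 1 library whose gap to the nearest other was above Dixon's critical value for 4 samples, which chance gives in about 1 group in 20. Of these 13, 6 were muscle genes in day 7 replicate 4, with 163 CPM of Myh3 (the other day 7 libraries had 79.9 to 91.9 CPM), 36.1 CPM of Chrng (5.63 to 7.7 CPM), 133 CPM of Chrna1 (46.0 to 55.7 CPM), 69.8 CPM of Chrnb1 (44.5 to 46.5 CPM), 47.9 CPM of Chrnd (7.66 to 11.8 CPM) and 26.5 CPM of Musk (9.54 to 11.7 CPM). Except for Myh3, these encode acetylcholine receptor subunits or the receptor-gathering kinase. In the same library the summed mature muscle list was the lowest of the 8, at 90110 CPM. Day 14 replicate 1 had 623 CPM of the slow myosin gene Myh7 and 9.87 CPM of Colgalt2. Day 14 replicate 2 had 18.9 CPM of Sox9 and 1.68 CPM of Lgr5, both nearer to the lowest day 7 library than to the next day 14 library, and 374 CPM of Cox6a2, where the other day 14 libraries had 582 to 603 CPM. Day 7 replicate 3 had 4.52 CPM of B3gat1 and 10.1 CPM of Arntl.

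Cilp2 differed between the day 7 to 14 step and the day 14 to 21 step by 2.47 on the log2 scale in the test of that difference (edgeR adjusted p = 0.00603). The causes of these values were not tested.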

How the results depend on the processing

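Of 111 named genes past the threshold, 104 kept their direction and their side of it under every alternative run for each. Of the 17 alternatives, the filter at a mean count of 50 and those that left genes out before scaling did not cover every gene. The other 7 were Col1a1, Gata2, Gzma, Gzmb, Myl3, Mybpc1 and Myh2. Some named genes that did not pass did so, with the same sign, in another setting. These were 5 with total-count scaling, 4 without day 14 replicate 2, 3 with the replicate block, 2 with no filter on low counts and at most 1 in any other. Counts of genes past the threshold, higher and lower were 6449, 3399 and 3050 in DESeq2 and 6257, 3284 and 2973 with its size factors. They were 5315, 3021 and 2294 with no filter on low counts and 5619, 2824 and 2795 in the 8 libraries alone. Leaving out 1 library gave 4320 to 7552 calls, 2558 to 3868 higher and 1762 to 3684 lower. Total-count scaling gave 1315 higher and 7727 lower. Leaving out muscle and respiratory genes before scaling gave 3477 higher and 2739 lower. Genes past the threshold in the difference of the steps were 1 as reported, 110 with no filter on low counts, 8 with a mean count of at least 50, 62 in DESeq2, 0 in edgeR with total-count scaling and 1 to 460 with 1 library left out. Without 1 library, differences of shares of counts ranged over 2.53 to 3.52 percentage points for mitochondrial genes, 5.13 to 6.83 for mature muscle, −3.59 to −2.50 for fibrillar matrix and 5.65 to 7.24 for the 20 most abundant genes, where 4 against 3 libraries cannot go below an exact permutation p of 0.0571. Over all genes, 28 that passed on the TMM scale also passed with the opposite sign under total-count scaling. Among the named genes signs turned only for ones that did not pass: Prg4 to −0.09 with the replicate block, −0.16 to 0.21 with 1 library left out and to −0.30 with total-count scaling, Chrne to −0.06 with total-count scaling, and Myh7 to −0.64 without day 14 replicate 1 (−0.64 to 0.95 with 1 library left out). The causes were not tested.

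Replicate numbers are shared between the days, but same-numbered libraries did not deviate together (correlations 0.052, −0.21, −0.366 and −0.072). Those of other-numbered libraries ranged from −0.393 to 0.472, so these few correlations cannot settle whether replicates were paired. With a replicate block 6511 genes passed, 3423 higher and 3088 lower, and 2 in the difference of the steps. Simulated recovery was lower for 1.5-fold than for 2-fold changes, so a gene that did not pass may still differ.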
